A study of Mus musculus with 2 samples.

Results

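Heat shock chaperones of the newborn mouse spleen are described here through 10 genes: Hspa8, Hspa1a, Hspa1b, Hspa5, Hspa9, Hsp90aa1, Hsp90ab1, Hspd1, Hspe1 and Dnajb1. They were picked by symbol, not by level, and all 10 were found among the 43346 Ensembl genes of the deposited tables. The series holds total RNA-seq of spleens from 2 pups of the mouse strain B6NCrl, taken on the day of birth (postnatal day 0) from the same pregnancy. There is 1 library per pup, untreated as far as the labels say, with sex not collected. Replicate 1 came from pup 2 and replicate 2 from pup 1, and the 2 form a single group, so the design holds no contrast between conditions and allows no p-value. Each library was made from 10.0 ng of RNA longer than 200 nt. Library totals were 33122187 estimated counts for replicate 1 and 32162543 for replicate 2.

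Chaperones bind unfolded or partly folded proteins and use cycles of ATP binding and hydrolysis to hold, fold or hand them on. HSP70 proteins work with J-domain partners that deliver clients and with nucleotide exchange factors that release them, HSP90 proteins complete the folding of kinases, receptors and other clients, and the mitochondrial chaperonin HSP60 encloses a protein under a lid made of its co-chaperonin HSP10. Several of these genes are induced by heat and other protein-damaging stress through heat shock factor 1, which binds heat shock elements in their promoters, whereas their cognate relatives are made at all times. The newborn mouse spleen is a site of red cell formation, and in human erythroblasts HSP70 is known to protect the transcription factor GATA1 from cleavage.

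The promoter sequences are shown first because the stress-inducible members are known by the heat shock elements they carry. The RefSeq promoter table (GRCm38.p6, 250 bases before to 50 after each start) held entries for 6 of the 10 members, Hspa1a, Hspa1b, Hspa5, Hspd1, Hspe1 and Dnajb1. A heat shock element is built of the unit GAA or its reverse complement TTC in alternating direction. The searches, on both strands, were for 2 units (GAANNTTC or TTCNNGAA), for 3 units (a 2-unit element followed, after 2 further bases, by another unit in the opposite direction), for the ER stress element (CCAAT and CCACG with 9 bases between them, so that it contains a CCAAT box), and for CCAAT and TATAAA. In the 250 bases before the start of Hspa1a and of Hspa1b, read on the minus strand, capitals mark first the 2-unit heat shock element and then the CCAAT box, which stands there as ATTGG.
Hspa1a, chr17:34972157-34972406: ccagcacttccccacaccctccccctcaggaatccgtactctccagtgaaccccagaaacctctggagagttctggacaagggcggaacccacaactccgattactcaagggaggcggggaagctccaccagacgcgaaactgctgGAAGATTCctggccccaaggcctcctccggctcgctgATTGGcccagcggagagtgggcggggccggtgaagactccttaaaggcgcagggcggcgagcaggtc
Hspa1b, chr17:34959239-34959488: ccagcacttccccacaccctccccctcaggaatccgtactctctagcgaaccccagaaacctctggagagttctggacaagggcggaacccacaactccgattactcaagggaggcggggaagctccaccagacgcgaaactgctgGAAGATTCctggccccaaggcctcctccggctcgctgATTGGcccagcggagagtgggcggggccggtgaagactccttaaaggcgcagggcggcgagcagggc
The 2 sequences were 98.8% identical, with 3 substitutions, C44T, T47C and T249G, counted from 1 at the 5′ end with the Hspa1a base first. None of the 3 falls in a capitalised motif. The heat shock element begins 104 bases before the start in both genes and the CCAAT box 67 bases before it.

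Hspd1 and Hspe1 lie head to head on chromosome 1 and share 1 stretch of heat shock units, shown because it was the 3-unit match of both genes. It runs over 18 bases, 35 nt from the start of Hspd1-201 and 56 nt from the start of Hspe1-201, inside an exon of the minor transcript Hspd1-202. Its 3-unit matches overlap, so that 4 alternating units follow each other. The plus strand is printed, with the units and the bases between them in capitals.
Hspd1 and Hspe1, chr1:55088053-55088082: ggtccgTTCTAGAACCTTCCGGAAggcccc
Hspa5 instead carried the ER stress element, 52 nt before the start of its leading transcript Hspa5-202 and inside an exon of the longer Hspa5-201. The plus strand is printed with the element in capitals.
Hspa5, chr2:34772020-34772048: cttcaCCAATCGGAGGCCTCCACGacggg

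Over all 32851 promoters in the table, 0.603% held the 3-unit heat shock element and 15.1% the 2-unit form, 0.119% held the ER stress element, 37.4% CCAAT and 13.6% TATAAA. Among the 6 members with an entry, 2 held the 3-unit form (Hspd1 and Hspe1) and 4 the 2-unit form (these and Hspa1a and Hspa1b). The ER stress element was held by 1 (Hspa5), CCAAT by 5 and TATAAA by 0. The shares are per promoter window, whereas a member was counted if any of its windows matched. Hspd1 and Dnajb1 each had 2 windows, so the member counts cannot be set directly against the shares. Hspd1 counted for CCAAT only through a match 1 to 5 bases after its other start, whose window held no heat shock form. Of the Dnajb1 windows, 1 held CCAAT and neither held a heat shock form. These are matches of letters in windows around the starts, and binding was not measured here. In these spleens the 2-unit element alone stood before genes averaging 1.53 TPM (Hspa1a) and 0.195 TPM (Hspa1b), and the 3-unit element before genes averaging 199 TPM (Hspd1) and 248 TPM (Hspe1). Hspa5 (239 TPM) and Dnajb1 (73.7 TPM) held neither heat shock form. Hspd1 and Hspe1 share 1 stretch, and the Hspa1a and Hspa1b promoters are near copies, so these are not separate cases. A link between element and level was not tested.

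**Figure D1:**
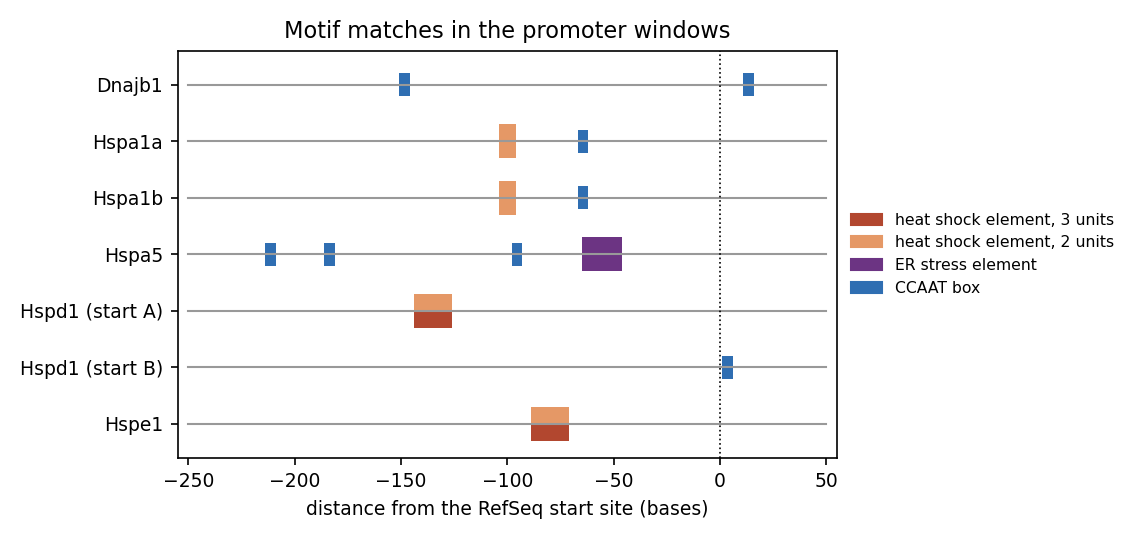
Motif matches in the promoter windows of the members, by distance in bases from the RefSeq start site (dotted line at 0); each row is 1 start site, Hspd1 has 2 (A and B), and a second Dnajb1 start without any match is left out. The 3-unit heat shock element appears in Hspd1 and Hspe1, the 2-unit form alone in Hspa1a and Hspa1b, and the ER stress element in Hspa5.

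Together the 10 genes held 2902 TPM in replicate 1 and 2813 TPM in replicate 2, which is 0.286% ± 0.00632 of all TPM (SD, n = 2). TPM is a transcript level normalised for length and for the total of the library. In bulk tissue, fewer cells of a type and less RNA per cell cannot be told apart. Adult globin transcripts take a large part of this tissue's RNA, and outside them the members made up 0.390% ± 0.0164 of TPM. Of the members' summed TPM, 69.0% in replicate 1 and 70.2% in replicate 2 came from the cytosolic trio Hspa8, Hsp90ab1 and Hsp90aa1. The median member stood at 223 TPM in replicate 1 and 209 TPM in replicate 2, whereas the median protein-coding gene with at least 1 TPM stood at 12.2 TPM and 12.9 TPM in the same libraries. At least 1 TPM in both libraries was reached by 9 of the 10 members, against 55.5% of the 21461 protein-coding genes, and at least 100 TPM in both by 7 of the 10, against 4.74%.

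The constitutive cytosolic members led. Hspa8, on chromosome 9 (40800984 to 40810087, plus strand), encodes the cognate cytosolic HSP70, which folds new proteins and uncoats clathrin vesicles. Its level was 746 TPM in replicate 1 and 788 TPM in replicate 2 (766.8 ± 30.04, SD, n = 2), from 37588 and 37566 estimated counts. It ranked 105 in replicate 1 and 87 in replicate 2 among protein-coding genes. Hsp90ab1, the constitutive cytosolic HSP90, on chromosome 17 (45567775 to 45573271, minus strand), stood at 648 TPM in replicate 1 and 651 TPM in replicate 2 (649 ± 1.98), and ranked 129 in both. Its paralog Hsp90aa1, the form more responsive to stress, on chromosome 12 (110690605 to 110702728, minus strand), stood at 610 TPM in replicate 1 and 537 TPM in replicate 2 (573 ± 51.4). On the TPM scale both libraries had the order Hspa8, Hsp90ab1, Hsp90aa1, with neither pair of neighbours overlapping. In reads, not corrected for length, Hsp90ab1 came first in both libraries, with 1243 CPM in replicate 1 and 1250 CPM in replicate 2, and Hspa8 second, with 1135 and 1168 CPM.

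The stress-inducible HSP70 pair was at the other end. Hspa1a, on chromosome 17 (34969190 to 34972156, minus strand), had 1.51 TPM in replicate 1 and 1.55 TPM in replicate 2 (1.53 ± 0.0283), from 136 and 132 counts. Hspa1b, its near-identical neighbour (34956436 to 34959238, minus strand), had 0.280 TPM in replicate 1 and 0.110 TPM in replicate 2 (0.195 ± 0.120), from 23.8 and 9.21 counts. In rank of level, 46.3% of protein-coding genes stood below Hspa1a and 33.7% below Hspa1b. The pair shares reads, since 1350 windows of 100 bases are common to both transcripts, so the split between them is an estimate: the authors' posterior SD was 5.92 and 4.50 counts for Hspa1a and 4.37 and 3.64 counts for Hspa1b in replicates 1 and 2. Their sum does not depend on that split and came to 160 counts (1.79 TPM) in replicate 1 and 141 counts (1.66 TPM) in replicate 2, of which Hspa1a was given 85.1% and 93.5%. Hspa8 therefore exceeded the inducible pair 417-fold in replicate 1 and 475-fold in replicate 2 on the TPM scale.

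Dnajb1, the HSP40 J-domain protein that delivers clients to cytosolic HSP70 and is itself a heat shock gene, is on chromosome 8 (83608193 to 83612653, plus strand). It had 76.8 TPM in replicate 1 and 70.6 TPM in replicate 2 (73.7 ± 4.41), from 5237 and 4540 counts. Dnajb1 ranked 1390 in replicate 1 and 1536 in replicate 2 among protein-coding genes, whereas the inducible Hspa1a ranked 11352 and 11649. Dnajb1 exceeded Hspa1a 48.1-fold in mean TPM, the widest step between neighbours in the members' order. Hspa8 exceeded Dnajb1 9.71-fold in replicate 1 and 11.2-fold in replicate 2.

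In the endoplasmic reticulum, HSP70 is BiP, encoded by Hspa5 on chromosome 2 (34771970 to 34777547, plus strand), which folds secretory proteins and restrains the sensors of the unfolded protein response. Hspa5 had 236 TPM in replicate 1 and 243 TPM in replicate 2 (239 ± 4.62), from 16082 and 15013 counts. Its level was 1.87 times that of Hsp90b1, the HSP90 of the same compartment, in replicate 1 and 1.74 times in replicate 2. Hsp90b1 itself stood at 126 TPM in replicate 1 and 140 TPM in replicate 2, so on the TPM scale both genes were lower in replicate 1.

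Mitochondria had 3 members. Hspe1, the HSP10 lid, on chromosome 1 (55088132 to 55091307, plus strand), had 265 TPM in replicate 1 and 231 TPM in replicate 2 (248 ± 24.3). Hspd1, the HSP60 barrel, next to it on the opposite strand (55077835 to 55088243), had 211 TPM in replicate 1 and 187 TPM in replicate 2 (199 ± 16.8). The annotated bounds of these genes overlap, so reads there could not be told apart by position alone, and the strand setting of the counting is not given in these sources. Hspd1 stood at 0.794 times the TPM of Hspe1 in replicate 1 and 0.809 times in replicate 2 (0.802 ± 0.0108), and both genes were higher in replicate 1. Hspa9, the mitochondrial HSP70 that pulls imported proteins through the inner membrane, on chromosome 18 (34937414 to 34954357, minus strand), had 109 TPM in replicate 1 and 105 TPM in replicate 2 (107 ± 2.79). That was 0.517 times the level of Hspd1 in replicate 1 and 0.561 times in replicate 2.

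In the whole order by mean TPM (Hspa8, Hsp90ab1, Hsp90aa1, Hspe1, Hspa5, Hspd1, Hspa9, Dnajb1, Hspa1a, Hspa1b), 8 of the 9 neighbouring pairs were apart, meaning that both libraries of one gene lay above both libraries of the next. The pair that was not apart was Hspe1 and Hspa5, whose means differed 1.04-fold. The protein-coding genes nearest in level to Hspa8 were Gm11808 above it (776 ± 44.98 TPM) and Rbm3, a cold-inducible RNA-binding protein, below it (766 ± 39.0 TPM). Hsp90ab1 lay between Ifitm2 (650 ± 104 TPM) and the ribosomal protein gene Rpl10 (634 ± 14.9 TPM). Dnajb1 lay between Mmadhc (73.8 ± 0.311 TPM) and the histone gene Hist1h1e (73.7 ± 4.26 TPM). This is likeness of level only, over 2 libraries.

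**Figure D2:**
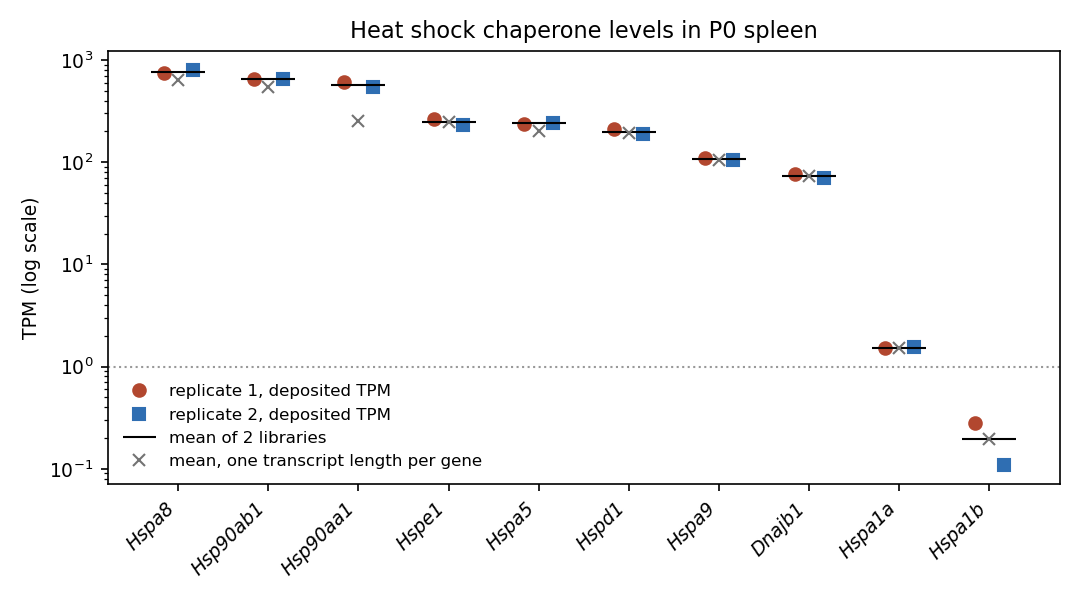
Level of each member in TPM on a log axis, in replicate 1 (circles), replicate 2 (squares) and as their mean (bars); crosses are the mean recomputed with 1 transcript length per gene, and the dotted line is 1 TPM. Hspa8, Hsp90ab1 and Hsp90aa1 lie highest, 8 members lie above 70 TPM, and Hspa1a and Hspa1b lie at 1.53 and 0.195 TPM.

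Part of the members' TPM came from short or non-coding transcripts. For Hspa8, the coding transcript Hspa8-202 (2019 nt) held 59.5% of the gene's TPM in replicate 1 and 59.4% in replicate 2, and the coding Hspa8-201 held 15.7% and 15.9%. A retained-intron transcript of 456 nt, Hspa8-204, held 24.3% of TPM in replicate 1 and 23.6% in replicate 2, but only 5.34% of the gene's counts on average. Short transcripts weigh more on the TPM scale than in reads. In Hspa5 the coding Hspa5-202 held 80.8% of TPM in replicate 1 and 77.7% in replicate 2, and Hspa5-204, a 477-nt transcript annotated for nonsense-mediated decay, held 15.9% and 17.9%.

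The HSP90 paralogs differed most in this respect. Hsp90ab1 had 1 dominant coding transcript, Hsp90ab1-201, with 77.7% of its TPM in replicate 1 and 81.0% in replicate 2, followed by the 703-nt Hsp90ab1-206, annotated for nonsense-mediated decay, with 20.0% and 16.3%. For Hsp90aa1 the largest share of TPM, 45.1% in replicate 1 and 42.2% in replicate 2, was assigned to Hsp90aa1-208, a coding transcript model of 711 nt. The 3281-nt Hsp90aa1-202 held 24.98% and 24.2% of TPM but 55.5% of the counts on average, against 19.0% of counts for Hsp90aa1-208. Retained-intron transcript Hsp90aa1-206 held 17.1% of TPM in replicate 1 and 21.3% in replicate 2. With the length of the transcript that has the most reads used for the whole gene, an alternative chosen after seeing the data, Hsp90aa1 came to 254 ± 23.8 TPM, of which the deposited level was 2.26 times, and Hsp90ab1 to 549 ± 13.2 TPM. The ratio of Hsp90ab1 to Hsp90aa1 was 1.06 in replicate 1 and 1.21 in replicate 2 on deposited TPM, and 1.99 and 2.36 with 1 length per gene. At 1 length Hsp90aa1 no longer stood apart from Hspe1 (248 ± 24.3 TPM). Hsp90ab1 was the higher paralog in both libraries on either scale.

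The mitochondrial genes were simpler. Hspa9-201 held 99.4% of the gene's TPM in replicate 1 and 98.2% in replicate 2, Hspe1-201 held 99.2% in both, and Hspd1-201 held 95.5% and 94.5%. Hspd1-202, the transcript whose exon contains the shared heat shock element, held 3.91% in replicate 1 and 5.09% in replicate 2. Dnajb1, Hspa1a and Hspa1b each have 1 transcript in the tables. By counts, the leading transcript was the same as by TPM in 9 of the 10 members, the exception being Hsp90aa1.

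**Figure D3:**
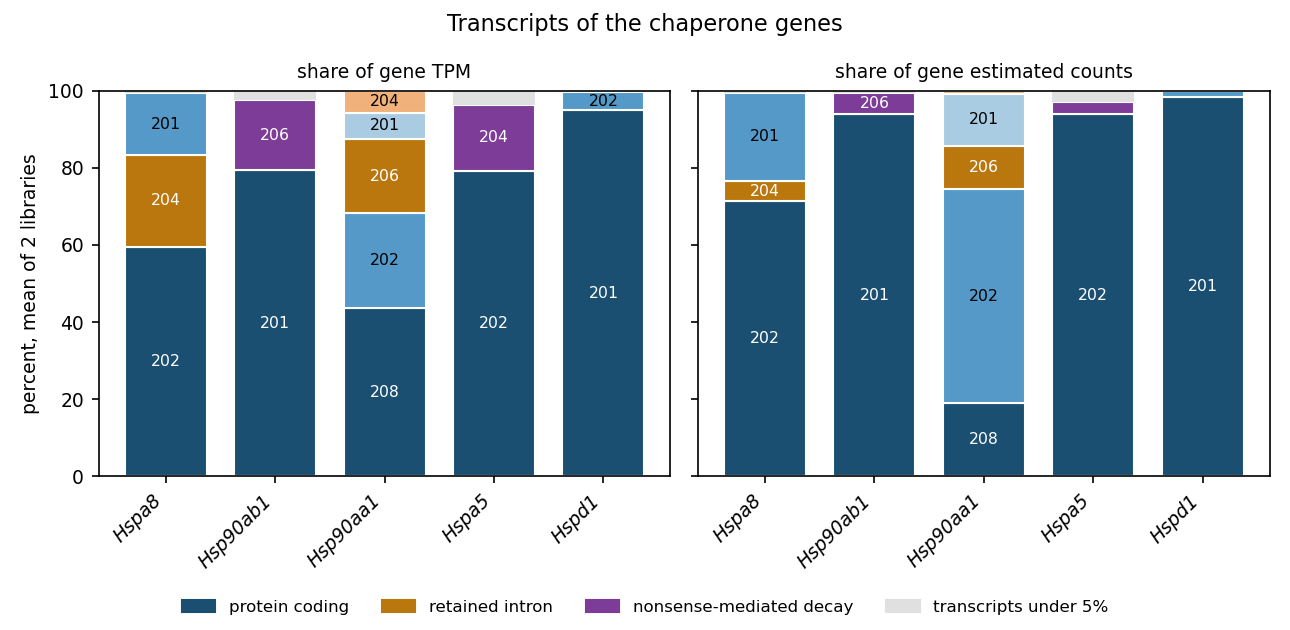
Share of each gene's TPM (left) and of its estimated counts (right) by transcript, in percent as the mean of 2 libraries, for the 5 members with at least 2 transcripts at 5% or more of TPM in either library; numbers are the transcript suffixes and shades of one colour separate transcripts of one class. In Hsp90aa1 the 711-nt transcript 208 leads by TPM (43.6%) and the 3281-nt transcript 202 by counts (55.5%).

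Reads of several members could also match copies elsewhere. Of the 100-base windows of the longest coding transcript, 63.4% of those of Hspa8, 56.5% of Hspa1a, 49.9% of Hspa1b, 47.5% of Hsp90aa1, 26.9% of Hspd1 and 22.4% of Hspe1 occurred in another annotated gene, and 0% of those of Hspa5, Hspa9, Hsp90ab1 and Dnajb1. For Hspa8 the partners with the most shared windows, 1342 each, were Gm26825 and Gm15459. Gm26825 was listed with 531 counts in replicate 1 and 581 in replicate 2, and Gm15459 with 117 and 31.9. The HSP70 pseudogene Gm8355, which shares 678 windows with Hspa8, had the most listed counts, 1249 in replicate 1 and 1306 in replicate 2. For Hsp90aa1 the largest partner was Gm12346, with 291 counts in replicate 1 and 263 in replicate 2, and for Hspd1 it was Hspd1-ps3, with 210 and 166 counts. These counts are small against those of Hspa8, Hsp90aa1 and Hspd1. For the inducible pair they are not: Gm10501, which shares 134 windows with Hspa1a and 89 with Hspa1b, was listed with 54.1 counts in replicate 1 and 50.1 in replicate 2, more than Hspa1b itself. Other copies had no listed counts: Gm6210 (277 windows) and Gm7232 (175) for Hspa8, Gm47750 (35) for Hspd1 and AC117239.2 (138) for Hspe1. Their part in the members' counts could not be seen and was not tested. The division of shared reads was the authors' estimate, and its error beyond their posterior SD was not tested here.

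Between the littermates no member past the count minimum differed by as much as 1.5-fold. Ratios of replicate 1 over replicate 2 were computed on counts scaled by TMM, for the 15506 genes that averaged 20 counts or more, which 9 of the members did. Hspa1b, with 23.8 counts in replicate 1 and 9.21 in replicate 2, did not pass, and the 95% exact interval of its count ratio ran from 1.24 to 6.78 for counting error alone. At least 1.5-fold apart, in either direction, were 0 of the 9 members, against 7.11% of all genes tested (2.54% higher in replicate 1 and 4.57% higher in replicate 2). At 2-fold the members again numbered 0, against 1.78%. Among the 1458 genes that averaged 4000 counts or more, a limit chosen after seeing the data that every one of the 9 but Hspa1a meets, 0.754% were at least 1.5-fold apart, so a count of 0 is not particular to the members. The 9 ratios ran from 1.04 to 1.27, and all 9 were above 1, against 48.9% of all genes tested. Their median log2 ratio was 0.21, against -0.01 over all genes tested, and their median size regardless of sign was 0.21, against 0.18. Above 1 were also 79.1% of those 1458 genes, so a ratio above 1 is common among genes of this abundance.

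Within that narrow range Hspe1 had the highest ratio, 1.27 (95% interval of the counts 1.22 to 1.32), from 5652 counts in replicate 1 and 4642 in replicate 2. Hsp90aa1 followed with 1.26 (1.24 to 1.28), from 27149 and 22427 counts, and Hspd1 with 1.25 (1.22 to 1.28), from 14939 and 12424. The ratios of the barrel and the lid of the mitochondrial chaperonin were thus close, with that of Hsp90aa1 between them. Dnajb1 stood at 1.20 (1.15 to 1.25), Hspa9 at 1.15 (1.12 to 1.19) and Hspa5 at 1.11 (1.09 to 1.14). Nearest to 1 were Hsp90ab1 at 1.07 (1.051 to 1.08), Hspa1a at 1.07 (0.837 to 1.37) and Hspa8 at 1.04 (1.03 to 1.06). The intervals cover counting error only and set no pup apart: the coefficient of variation between the libraries, over all genes tested, was 0.128. The signs of the smallest ratios also depended on the scaling: with library size alone, which lowers every log2 ratio by 0.099, Hspa8 (-0.04) and Hsp90ab1 (-0.01) were lower in replicate 1, which left 7 of 9 members above 1, against 33.9% of all genes tested. On deposited TPM Hspa8, Hsp90ab1, Hspa1a and Hspa5 were lower in replicate 1.

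**Figure D4:**
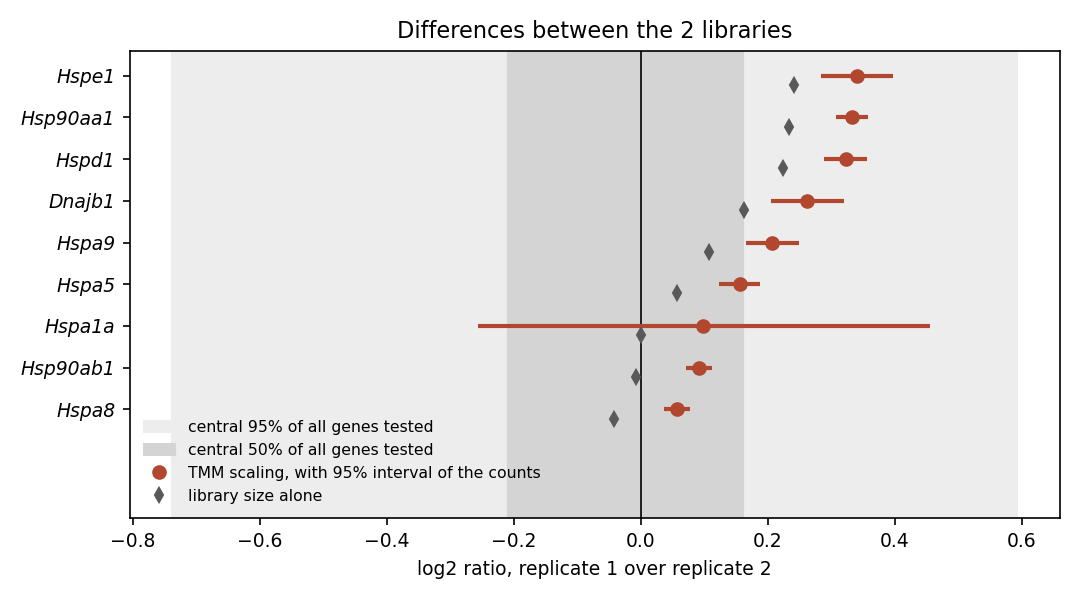
Log2 ratio of replicate 1 over replicate 2 for the 9 members past the count minimum, with TMM scaling (circles, bars are the 95% interval of the counts) and with library size alone (diamonds); grey bands hold the central 95% and 50% of the 15506 genes tested. All 9 circles lie between 0.06 and 0.34, and the diamonds of Hspa8 and Hsp90ab1 lie below 0.

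Levels of cell marker genes differed between the libraries as well. All 5 spleen identity genes, such as the transcription factor Tlx1 at 15.5 TPM in replicate 1 and 24.1 TPM in replicate 2, passed 1 TPM in both libraries, and 5 of 5 ratios were below 1 (summed 173 TPM in replicate 1 and 219 TPM in replicate 2). Erythroid markers were above 1 in ratio for 10 of 10 genes (summed 279820 TPM in replicate 1 and 259025 TPM in replicate 2) and proliferation markers for 7 of 7 (2391 and 1946 TPM). Over all genes tested 48.9% had a ratio above 1, and 79.1% of those averaging 4000 counts or more. Below 1 were 7 of 7 neutrophil markers (13502 TPM in replicate 1 and 19133 TPM in replicate 2), 6 of 6 macrophage markers (527 and 771 TPM), 5 of 5 B cell markers (161 and 229 TPM) and 6 of 6 stromal and endothelial markers (570 and 784 TPM). Pancreatic acinar markers summed to 1441 TPM in replicate 1 and 507 TPM in replicate 2, with 15 of 16 genes at 1 TPM or more in both libraries and Pnlip at 0.110 and 0 TPM. The liver list summed to 31.3 and 15.5 TPM, with 3 of 6 genes at 1 TPM or more in both, and the T cell list to 12.7 and 15.3 TPM, with 3 of 5. Ratios were above 1 for 15 of 15 acinar, 5 of 5 liver and 1 of 3 T cell genes tested. At least 1.5-fold apart were 14 acinar, 5 liver, 1 T cell and 1 proliferation gene, against 7.11% over all genes tested. The erythroid, neutrophil, macrophage, B cell, stromal and endothelial, and spleen identity lists had 0. Immediate early genes, another class induced within minutes of handling or stress, summed to 89.2 TPM in replicate 1 and 96.3 TPM in replicate 2, with 6 of 8 at 1 TPM or more in both. Their ratios went both ways: of 7 tested, Fos (1.43) and Dusp1 (1.44) were above 1 and 5 below it. Of the 7, 2 were at least 1.5-fold apart, Egr1 (0.534) and Atf3 (0.488), against 7.11% over all genes tested. Egr1 averaged 192.5 counts and Atf3 59. What part any of these lists has in the chaperone values was not tested.

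The wider chaperone network was expressed too. Of 109 other chaperone and cofactor genes found by symbol, 98 (89.9%) had at least 1 TPM in both libraries, against 55.5% of protein-coding genes. Of 101 tested, 73 had a ratio above 1 and 28 below it, against 48.9% above 1 over all genes tested and 79.1% among those averaging 4000 counts or more. The same shares are the background for the counts of ratios given list by list below. Many network genes averaged fewer than 4000 counts, such as Hsph1 (1279) and Hsf1 (845.5). The abundant genes are therefore not matched to the lists in level. At least 1.5-fold apart were 0 of the 101, against 7.11% over all genes tested and 0.754% among the abundant ones. The median log2 ratio of the network was 0.12. Scaled by library size alone, list medians stayed above 0 for TRiC/CCT (0.13), prefoldin (0.07), mitochondrial proteostasis (0.06), HSP90 co-chaperones (0.04), J-domain proteins (0.03) and exchange factors (0.0024). They were below 0 for the other HSP70 (-0.08) and HSP90 (-0.07) genes, which TMM put at 0.02 and 0.03, and for heat shock regulators (-0.14), small heat shock proteins (-0.13) and the endoplasmic reticulum (-0.13). Scaling by library size alone shifts log2 ratios by -0.099, and only 33.9% of all genes tested then had a ratio above 1. A list median below 0 on that scale therefore does not place the list below genes in general.

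Other HSP70 genes were far below Hspa8. The highest were Hspa4 (48.7 ± 0.0707 TPM), Hspa4l (14.2 ± 0.283) and Hsph1 (11.3 ± 0.382), which are HSP110-type relatives that act as exchange factors for HSP70. Together 9 genes of this list held 96.1 ± 3.05 TPM, and 7 reached 1 TPM in both libraries. Of the 8 tested, 4 ratios were above 1 and 4 below. The remaining HSP90 genes were Hsp90b1 of the endoplasmic reticulum (133 ± 9.62 TPM, ratio 0.982) and Trap1 of mitochondria (44.7 ± 2.14 TPM, ratio 1.06).

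Among the regulators of the heat shock response, Hsbp1 was highest and the heat shock factors stood lower. Hsf1, the main heat-responsive factor, stood at 13.8 TPM in replicate 1 and 15.1 TPM in replicate 2, with a ratio of 1.01. Hsf2, a related factor with roles in development, stood at 5.63 TPM in replicate 1 and 6.51 TPM in replicate 2 (ratio 0.953), and Hsbp1, which binds HSF1 and restrains it, at 92.5 and 105 TPM (ratio 0.973). Hsf4 (0.140 ± 0.0566 TPM), Hsf5 (0.05 ± 0) and Hsf2bp (0.155 ± 0.0212) were under 1 TPM in both libraries.

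Partners that drive the HSP70 cycle were abundant. J-domain genes other than Dnajb1 summed to 955 ± 7.98 TPM, with 20 of 21 at 1 TPM or more, led by Dnaja1 (140 ± 5.47 TPM), a cytosolic HSP40 above Dnajb1 itself, by Dnajc19 of the mitochondrial import motor (133 ± 9.60) and by Dnajc9 (112 ± 10.2), a histone chaperone. Their ratios were above 1 for 17 of 21. All 10 exchange factor genes reached 1 TPM in both libraries, with Bag1 first (157 ± 9.07 TPM), then Hspbp1 (51.2 ± 0.410) and Bag2 (39.2 ± 2.79). Small heat shock proteins hold unfolded proteins without ATP. Of the 10 genes listed under that name fewer were expressed: 6 reached 1 TPM, led by Hspb1 (58.4 ± 2.06 TPM), Cryab (19.1 ± 1.19) and Hspb11 (13.7 ± 1.20). The list went by symbol, and a holding function of Hspb11 was not shown here.

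Co-chaperones of HSP90 were all expressed. All 14 reached 1 TPM in both libraries, with a summed level of 963 ± 8.38 TPM. Ptges3, the p23 protein that stabilises the closed HSP90 dimer, led with 241 ± 12.0 TPM, ahead of Ahsa1 (111 ± 0.453), which stimulates its ATPase, and the immunophilin Fkbp4 (102 ± 0.240). Of the 14 ratios, 13 were above 1.

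The cytosolic chaperonin TRiC/CCT, which folds actin and tubulin, had 8 of 9 genes at 1 TPM or more and a summed level of 1507 ± 52.6 TPM. Cct5 (250 ± 12.8 TPM), Cct3 (225 ± 6.65) and Cct8 (223 ± 4.03) were its highest subunits, close in TPM to the mitochondrial chaperonin genes. Cct6b was the gene under 1 TPM (0.285 ± 0.0212). All 8 tested ratios were above 1, with a median log2 ratio of 0.23.

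Prefoldin, which hands new chains to TRiC, had all 6 subunit genes expressed. Pfdn5 was highest (235 ± 19.9 TPM), followed by Pfdn6 (127 ± 0.785), Vbp1 (115 ± 3.56), Pfdn1 (57.9 ± 0.757), Pfdn2 (56.6 ± 5.15) and Pfdn4 (40.0 ± 1.94). All 6 ratios were above 1, with a median log2 ratio of 0.17.

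Beside Hspa5, folding factors of the endoplasmic reticulum and the unfolded protein response summed to 1402 TPM in replicate 1 and 1555 TPM in replicate 2, with 19 of 19 genes at 1 TPM or more. Calr, a lectin chaperone of glycoproteins, led with 239 ± 16.9 TPM, close to Hspa5, followed by the disulphide isomerases P4hb (201 ± 23.1) and Pdia3 (179 ± 13.0). Ratios were above 1 for 7 genes and below 1 for 12, with a median log2 ratio of -0.03, while that of Hspa5 was 0.16. With spike-in scaling the list's median was 0.02. Of the mitochondrial folding and protease genes, 12 of 12 had ratios above 1, against 48.9% over all genes tested, with a median log2 ratio of 0.16. Highest in TPM on this list were Dnajc19, the intermembrane protease Htra2 (103 ± 6.87 TPM) and Clpp (53.8 ± 1.04), the matrix protease subunit. The 3 mitochondrial members had log2 ratios of 0.21 (Hspa9), 0.32 (Hspd1) and 0.34 (Hspe1). Differences between lists were not tested.

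**Figure D5:**
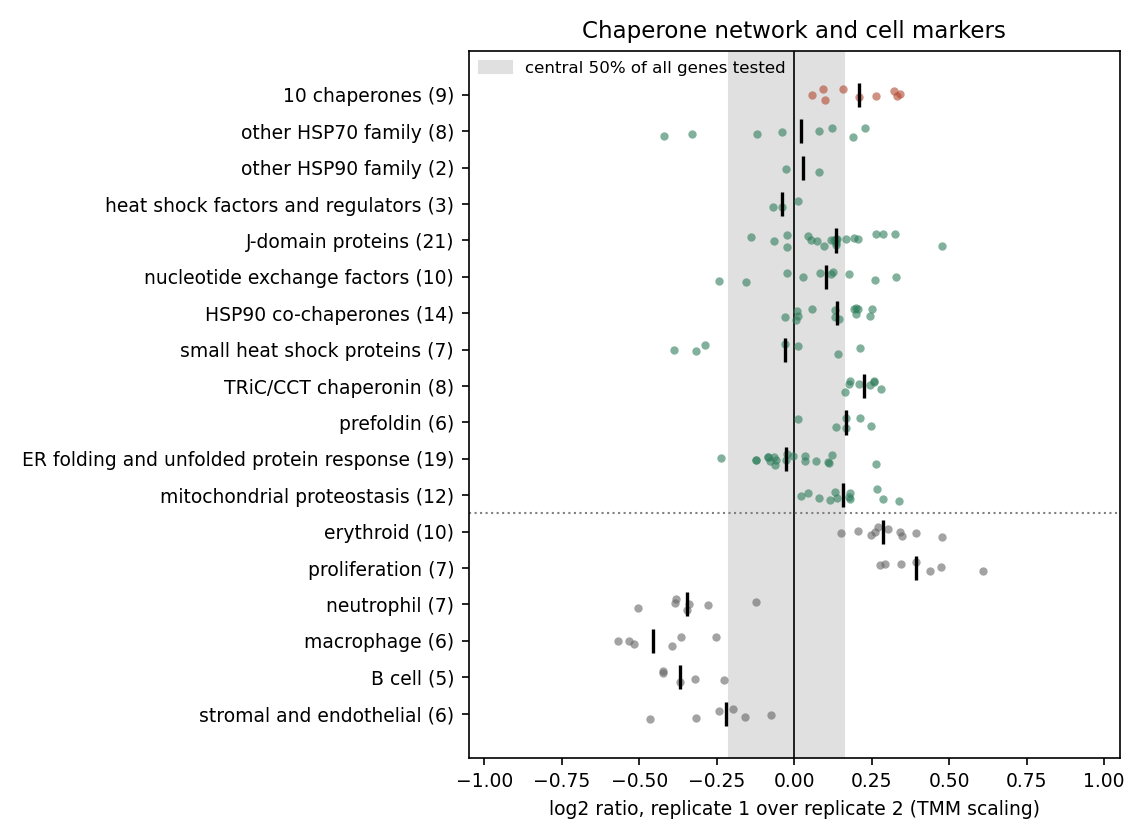
Log2 ratio of replicate 1 over replicate 2 (TMM scaling) for the 10 chaperones (9 past the count minimum), for the other chaperone lists (above the dotted line) and for cell markers (below it); points are genes, black ticks are medians, and the grey band holds the central 50% of all genes tested, with the number of genes in brackets. Medians were 0.21 for the members, 0.23 for TRiC/CCT, 0.29 for erythroid and 0.39 for proliferation markers, and -0.35 for neutrophil markers.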

How the data were processed

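Per the labels, total RNA was extracted with mirVana, a SMARTer low-input cDNA kit manual is listed, and the files are on mm10. For each library the authors deposited gene and transcript tables in the RSEM layout on GENCODE M4 gene models, as a listing deposited beside them states; the aligner is not given in these sources. The authors' estimated counts divide reads among features that match them, and their deposited TPM is relative to all features. Per the file headers, the authors also deposited each transcript's percent of its gene (recomputed here from TPM) and, recorded here as scores, posterior SDs of counts and bounds of TPM.

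Gene names and coordinates came from GENCODE M21 on GRCm38, matched by Ensembl identifier (42462 of 43346 genes). TPM is reported as deposited. With edgeR 4.0.16 in R 4.3.3, rounded counts were TMM-scaled (prior count 2) without the 97 spike-ins, and DESeq2 1.42.0 gave another scaling. Intervals are exact (Clopper-Pearson). The ratio step was checked on simulated data. Python 3.11.15, pandas 2.3.3 and matplotlib 3.10.9 did the rest.

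The members and all lists were chosen with earlier results of these data known. From each chaperone network list the 3 genes with the highest mean TPM are named, and all genes of network lists of 6 or fewer. Marker lists are given as sums and counts. Pnlip, Tlx1, Cct6b, Fos, Dusp1, Egr1, Atf3 and the copies of members were named after their values were seen. Genes on 2 lists count under both. One listed gene, Hspa14, had no match and was not analysed here. The labels give both samples 1 donor identifier but name pup 1 and pup 2, taken here as separate animals.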

Additional observations from a re-analysis of the deposited data

How the results depend on the processing

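Of 266 alternative values, 162 stayed within and 104 passed a tolerance: 1 SD between the libraries for levels, shares and level ratios, the interval of the counts for members' log2 ratios, 0.05 for list medians (log2) and 1.5 times for numbers of genes. Part of this tally was fixed by construction. With 2 libraries, leaving out 1 moves a mean by less than 1 SD. CPM and TPM are different units. Scaling by library size and by spike-ins shifted log2 ratios by -0.099 and 0.051, both beyond the 0.05 for list medians. The tally therefore does not measure how robust the results are. By counts in place of TPM the order of levels changed: Hsp90ab1 (1246 CPM) passed Hspa8 (1151 CPM), and Hspe1 (157 CPM) came after Hspa5, Hspd1 and Hspa9, with 8 of 9 neighbours apart on either scale and 7 with 1 length per gene. The summed member level of 2858 TPM was 3359 when rescaled to protein-coding genes, 3901 without adult globins, 4655 as CPM and 2266 with 1 transcript length per gene (chosen after seeing the data). Leaving out a replicate gave 2813 to 2902. By counts, ratios were 2.66 for Hspd1 over Hspe1, 1.65 for Hsp90ab1 over Hsp90aa1, 250.7 for Hspa8 over the Hspa1a and Hspa1b sum, 7.73 for Hspa8 over Dnajb1, 1.43 for Hspa5 over Hsp90b1 and 0.701 for Hspa9 over Hspd1. With 1 length per gene the first 4 were 0.773, 2.17, 372 and 8.71. By construction, counts do not correct for length. Members with a ratio above 1 numbered 9 with TMM, against 48.9% of all genes tested and 79.1% of those averaging 4000 counts or more. On deposited TPM they numbered 5, and the share of all genes above 1 on that scale was not computed. Genes at least 1.5-fold apart numbered 1103 with TMM and 505 on deposited TPM with 1 TPM added to each value. They numbered 5751 without a count minimum and 340 at a mean count of at least 100. The last 2 differ by the genes they admit. The added 1 TPM by construction draws the ratios of genes with low TPM towards 1. How much of the lower number on deposited TPM comes from it was not tested. Network genes detected numbered 98, with 100 at 0.5 TPM and 90 at 5 TPM. Only 2 libraries of 1 litter limit every spread, and the intervals hold for counting error alone, because PCR copies were not marked and reads need not be separate molecules. No paired analysis was possible because there is 1 group.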
